A study of Mus musculus with 30 samples.

Results

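The transcripts described here encode a glucose transporter, some of the enzymes of glycolysis and of its control, and subunits of lactate dehydrogenase: *Slc2a1*, *Hk1*, *Hk2*, *Pfkp*, *Pfkfb3*, *Aldoa*, *Pgk1*, *Eno1*, *Ldha* and *Ldhb*. They were found by their gene symbol in the tables of retinal pigment epithelium (RPE) and of bone marrow-derived macrophages (BMDMs). The 10 symbols took 11 of the 55573 rows, since *Aldoa* names 2 rows, and all 11 rows had a mean normalised count of at least 10 in both tissues. The rule used no measured value.

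RNA was sequenced from RPE of mice at postnatal day 25 and from BMDMs of adult mice after 7 days in medium conditioned by L929 cells, a fibroblast line that secretes the macrophage growth factor M-CSF. The RPE set held 6 libraries of B6 WT, 6 of *Mertk* -/-V1, 3 of *Mertk* -/-V2 and 3 of *Mertk* -/-V3, and the BMDM set held 3 libraries of each. MERTK is the receptor tyrosine kinase with which RPE and macrophages recognise material to be engulfed, and the study asked whether independently made *Mertk* knockout lines have the same phenotype. *Mertk* -/-V1 mice lack an exon of the kinase domain, still carry the neomycin cassette in the locus, were made in 129P2 embryonic stem cells and backcrossed to C57BL/6J, and keep a 129P2 segment around *Mertk* on chromosome 2. *Mertk* -/-V2 mice lack a different exon of the kinase domain, excised from a floxed allele of C57BL/6NJ origin by a tamoxifen-dependent Cre driven from the *Rosa26* locus, and the Cre was then bred out. *Mertk* -/-V3 mice lack a pair of exons further upstream, removed with CRISPR/Cas9 in C57BL/6NJ eggs. The C57BL/6J and C57BL/6NJ substrains are mixed in the *Mertk* -/-V2 and *Mertk* -/-V3 lines and not in B6 WT, so substrain and knockout cannot be told apart in these lines, nor can the flanking segment, the cassette and the knockout in *Mertk* -/-V1. RPE was shaken off the posterior eyecup into RNAprotect without a sort, so other cells of the eye can be present.

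Glycolysis splits glucose into pyruvate with a small yield of ATP, and lactate dehydrogenase then turns pyruvate and lactate into one another. In the outer retina, photoreceptors take up the glucose that reaches them through the RPE and release much of it as lactate, while the RPE is known for passing glucose on and using lactate as a fuel. Macrophages in culture depend strongly on glycolysis, and enzymes of the pathway are known targets of the hypoxia-inducible factors (HIFs).

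Since several of these genes moved together, the bases upstream of 4 of their start sites are shown first, for the genes that were lower in knockout BMDMs and for both lactate dehydrogenase genes. The sequences are those of RefSeq on GRCm38.p6, 5′ to 3′ on the strand of the gene, 250 bases ending just before the start site, with the letters ACGTG or GCGTG (the core of the HIF response element), on either strand, in capitals. *Aldoa* lies on the minus strand and its window is chr7:126799255-126799504. *Pgk1* lies on the plus strand, with the window chrX:106186850-106187099. *Ldha* lies on the plus strand, with the window chr7:46845554-46845803. *Ldhb* lies on the minus strand, with the window chr6:142507958-142508207. None of the 4 windows shares a base with an annotated exon of its own gene, and exons of other genes were not checked.
*Aldoa*: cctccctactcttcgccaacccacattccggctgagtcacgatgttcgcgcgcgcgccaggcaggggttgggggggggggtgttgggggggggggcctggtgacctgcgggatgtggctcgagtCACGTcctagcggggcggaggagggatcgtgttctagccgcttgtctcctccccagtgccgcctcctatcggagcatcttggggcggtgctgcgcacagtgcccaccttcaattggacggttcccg
*Pgk1*: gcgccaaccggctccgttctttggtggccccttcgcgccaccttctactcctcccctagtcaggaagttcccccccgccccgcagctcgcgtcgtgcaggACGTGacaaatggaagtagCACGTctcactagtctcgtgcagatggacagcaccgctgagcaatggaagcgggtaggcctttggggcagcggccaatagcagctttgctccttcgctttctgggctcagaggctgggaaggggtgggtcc
*Ldha*: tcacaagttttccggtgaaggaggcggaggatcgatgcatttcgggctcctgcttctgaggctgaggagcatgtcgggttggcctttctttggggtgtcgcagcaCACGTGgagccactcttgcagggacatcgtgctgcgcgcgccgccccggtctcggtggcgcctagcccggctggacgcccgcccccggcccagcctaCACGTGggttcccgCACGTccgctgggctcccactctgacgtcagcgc
*Ldhb*: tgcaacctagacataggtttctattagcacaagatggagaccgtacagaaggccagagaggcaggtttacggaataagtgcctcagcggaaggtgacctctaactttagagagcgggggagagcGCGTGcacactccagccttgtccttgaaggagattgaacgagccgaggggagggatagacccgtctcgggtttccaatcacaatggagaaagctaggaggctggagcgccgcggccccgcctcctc

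The search itself covered 300 bases, the 250 before and the first 50 after the start, on both strands. ACGTG was found in 6 of the 10 genes (*Slc2a1*, *Hk2*, *Pfkfb3*, *Aldoa*, *Pgk1* and *Ldha*) and in 19.6% of all 32851 promoters of that length. GCGTG was found in 6 of the 10 (*Slc2a1*, *Pfkp*, *Pfkfb3*, *Eno1*, *Ldha* and *Ldhb*) and in 32.4% of promoters. CACGTG, the E-box, contains ACGTG and was found in *Pfkfb3* and *Ldha*, 2 of the 10, and in 7.15% of promoters. Where a gene had several windows, the one nearest the start of its main transcript in GENCODE M21 was used, while the shares count every window. *Hk1* held none of these letters in the window used. Its other window, chr10:62340372-62340671, held ACGTG 2 times and GCGTG 3 times. In the windows used, 9 of the 10 genes held at least one of these letters, as did 43.8% of promoters. The windows were 51.3 to 67.3% G and C, against a median of 52.7% over all promoters. A match is a run of letters and was not tested for binding.

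In B6 WT, RPE had far more of the glucose transporter and *Ldhb*, and BMDMs had more *Pgk1* and *Ldha*. On a scale per length (TPM, made from the reads and the summed exon length of each gene), *Slc2a1*, which encodes the glucose transporter GLUT1, stood at 1094 ± 121 in RPE (SD, n = 6) and 67.0 ± 11.9 in BMDMs (SD, n = 3), 16.3-fold higher in RPE. *Ldhb*, the heart-type subunit of lactate dehydrogenase, stood at 618 ± 59.9 in RPE and 21.7 ± 3.0 in BMDMs, 28.5-fold higher in RPE. The muscle-type subunit *Ldha* went the other way, with 305 ± 51.0 in RPE and 1112 ± 128 in BMDMs, 3.65-fold higher in BMDMs. *Pgk1*, which makes the first ATP of the pathway, stood at 471 ± 62.6 in RPE and 1318 ± 178 in BMDMs, 2.80-fold higher in BMDMs. For these 4 genes no RPE library overlapped any BMDM library over all 30 libraries. The tables were normalised separately, so these levels are a description without a test.

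The order of the levels differed as well. Any order per length depends on the exon lengths used, which sum the exons of all annotated transcripts. These ran from 1570 bases for *Ldhb* to 13401 for *Pfkp*, and other lengths were not tried. In B6 WT RPE the order per length ran from *Aldoa*, the aldolase that splits the sugar, at 1215 ± 253, through *Slc2a1*, *Ldhb*, *Eno1* (enolase) at 539 ± 92.3, *Pgk1* and *Ldha* to *Hk1* at 110 ± 35.9, *Pfkp* at 55.9 ± 27.5, *Hk2* at 33.1 ± 19.4 and *Pfkfb3* at 6.36 ± 3.56. *Hk1* and *Hk2* encode hexokinases, which trap glucose in the cell, *Pfkp* the platelet isoform of phosphofructokinase, and *Pfkfb3* the enzyme that makes the fructose 2,6-bisphosphate that activates it. Neighbours in that order whose library ranges did not overlap were *Slc2a1* and *Ldhb*, *Ldha* and *Hk1*, and *Hk2* and *Pfkfb3*, and the remaining neighbours overlapped. In B6 WT BMDMs the order ran *Aldoa* (1383 ± 181), *Pgk1*, *Ldha*, *Eno1* (746 ± 112), *Slc2a1*, *Hk1* (65.2 ± 7.57), *Hk2* (44.0 ± 5.95), *Pfkp* (31.7 ± 4.44), *Ldhb* and *Pfkfb3* (16.7 ± 2.64). There the ranges of *Aldoa* and *Pgk1*, of *Pgk1* and *Ldha*, of *Slc2a1* and *Hk1*, and of *Ldhb* and *Pfkfb3* overlapped.

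**Figure D1:**
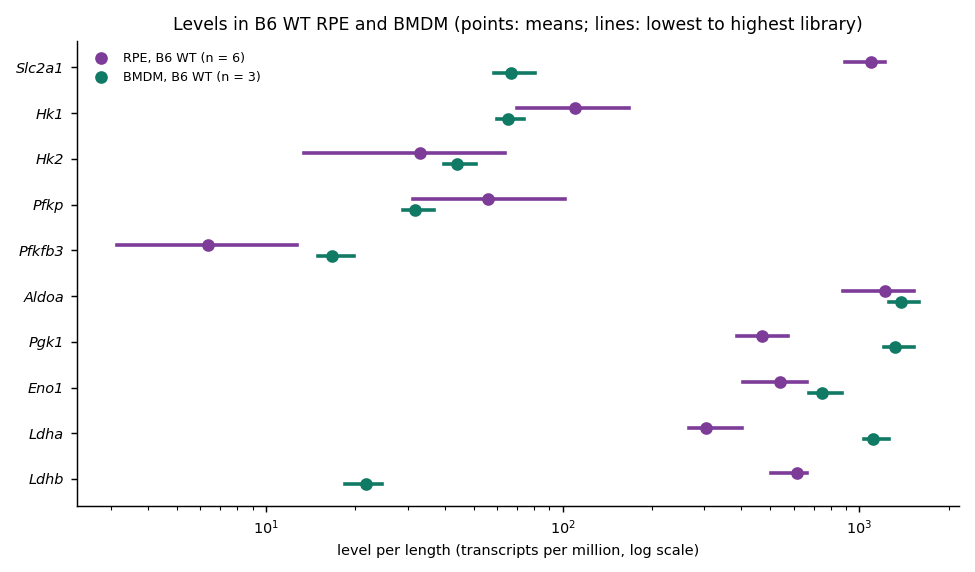
Level per length (TPM, log axis) of the 10 genes in B6 WT RPE (n = 6) and B6 WT BMDMs (n = 3); points are means and lines run from the lowest to the highest library. *Slc2a1* and *Ldhb* sit far to the right in RPE, at 1094 and 618 against 67.0 and 21.7 in BMDMs, and *Pgk1* and *Ldha* sit to the right in BMDMs, at 1318 and 1112 against 471 and 305.

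The balance of the isozymes followed from the same counts and does not depend on the scaling of a library. Of the summed *Ldha* and *Ldhb* level per length, *Ldhb* made up 67.1 ± 3.0% in B6 WT RPE (SD, n = 6, from 61.7 to 69.7%) and 1.91 ± 0.16% in B6 WT BMDMs (SD, n = 3, from 1.76 to 2.07%). On this scale RPE transcripts were mostly of the *Ldhb* kind and BMDM transcripts almost entirely of the *Ldha* kind. The shares depend on the exon lengths used, 3310 bases for *Ldha* and 1570 for *Ldhb*, summed over all annotated transcripts. Before division by length, the normalised counts of both genes in B6 WT RPE, given further on, were close. Other lengths were not tried. Of the summed hexokinase level, *Hk2* made up 21.8 ± 4.48% in B6 WT RPE and 40.3 ± 0.83% in B6 WT BMDMs. Across all 18 RPE libraries the *Hk2* share ran from 10.5 to 32.9%, below the 39.3 to 46.0% of all 12 BMDM libraries.

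*Mertk* itself was read first as a check of the labels. In RPE its normalised count was 2638 to 3924 in B6 WT (median 3230), 919 to 1717 in *Mertk* -/-V1, 3565 to 5311 in *Mertk* -/-V2 and 444 to 1106 in *Mertk* -/-V3. *Mertk* was lower in *Mertk* -/-V1 (log2 fold change -1.46, SE 0.20, adjusted p = 0.00267, limma) and *Mertk* -/-V3 (-2.01, SE 0.25, adjusted p = 0.00222), and not in *Mertk* -/-V2 (0.39, SE 0.25, adjusted p = 0.954). In BMDMs the changes were -1.61, 0.43 and -1.94 in the same order. A count summed over the gene does not test the loss of a single exon, so it checks *Mertk* -/-V1 and *Mertk* -/-V3 but not *Mertk* -/-V2.

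Some RPE libraries stood apart, which bears on each RPE result. In libraries 5 and 6 of *Mertk* -/-V1 and library 1 of *Mertk* -/-V3, *Rpe65*, the RPE visual cycle isomerase, was 21757, 13235 and 29950 normalised counts, against 32949 to 105278 in the remaining 15 libraries. The summed level of 12 rod markers was 439195 to 922002 in these 3 libraries and 34911 to 363760 in the others, with 10 of the 12 above the range of the others, and the summed level of 12 RPE markers was 206150 to 298439 against 463132 to 932519, with 11 of the 12 below. The 8 macrophage markers summed to 5933 to 6101 in them and 7721 to 12834 in the others. Taken singly, 1 of the 8 (*Csf1r*) was below and 1 (*Cx3cr1*) above the range of the others in all 3 libraries. In bulk samples more cells of a type and more RNA per cell cannot be told apart. The labelled cells were present: no RPE marker was at 0 throughout the 18 RPE libraries, and in BMDMs *Rpe65*, *Lrat*, *Ttr*, *Stra6* and *Cdh3* were at 0 in every library while 8 macrophage markers summed to 319544 to 362174.

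The 3 libraries also stood apart in most of the glycolysis and lactate genes. *Hk2*, the inducible hexokinase, was 5813, 6045 and 4157 in them and 617 to 2643 in the other 15 libraries (median 1305). *Ldha* was 16857, 14368 and 14267 against 5579 to 9555 (median 8688). *Slc2a1* was 13541, 13961 and 18029 against 24908 to 38711 (median 32519). So the hexokinases and the lower enzymes were high and the glucose transporter low in the same libraries. In all, 8 of the 11 rows (*Hk1*, *Hk2*, *Pfkp*, *Pfkfb3*, *Aldoa*, *Pgk1*, *Eno1* and *Ldha*) lay above and 2 (*Slc2a1* and *Ldhb*) below the range of the other 15, where 15.1% and 9.95% of all 18832 genes tested did so. These libraries were picked by their rod markers, and the values are a description with no test. The part of rod RNA in the changes of these genes was not tested.

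The *Ldhb* share was also lowest in the libraries rich in rod RNA. It was 45.6% in library 1 of *Mertk* -/-V3, against 68.9 and 78.3% in the others of that group, and the *Mertk* -/-V1 group ran from 42.4 to 67.7% with a mean of 57.7 ± 11.5% (SD, n = 6). The *Mertk* -/-V2 group, in which no library stood apart, had 70.0 ± 2.43% (SD, n = 3). The ranges of B6 WT and each knockout overlapped.

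**Figure D2:**
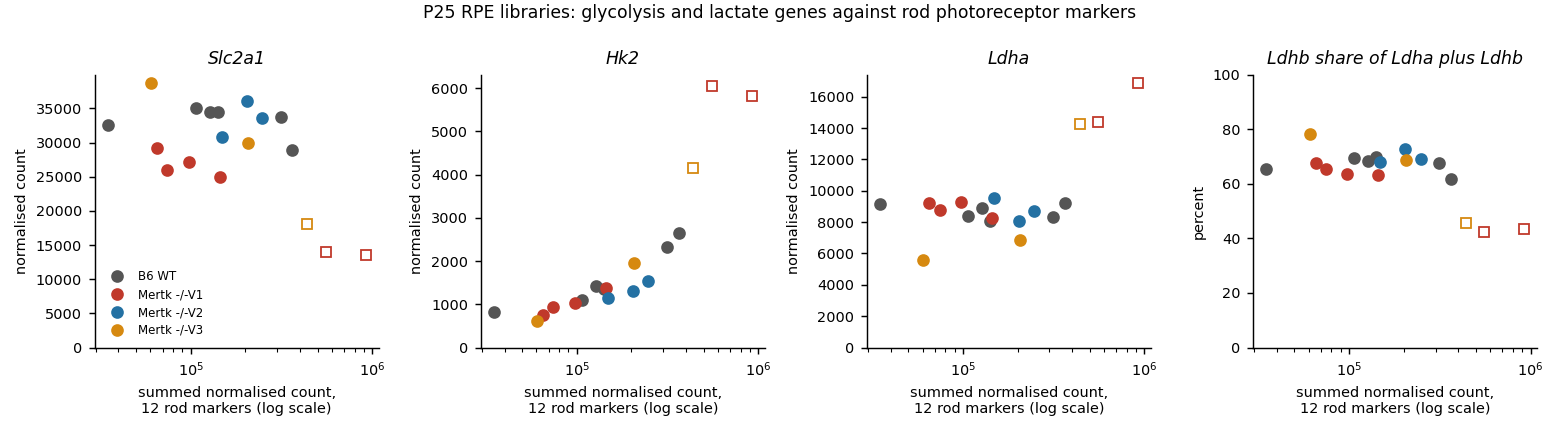
Normalised count of *Slc2a1*, *Hk2* and *Ldha*, and the *Ldhb* share of *Ldha* plus *Ldhb* in percent, against the summed normalised count of 12 rod markers (log axis) in the 18 RPE libraries, coloured by genotype; open squares mark the 3 libraries with the most rod marker RNA. In the squares *Hk2* lies at 4157 to 6045, above the rest, and *Slc2a1* at 13541 to 18029, below the rest.

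In P25 RPE none of the 11 rows passed the test between a *Mertk* knockout and B6 WT in the model of the 4 genotypes, and some passed in other fits, given further on. The values of the genes are given along the pathway. *Slc2a1* was 28902 to 35059 in B6 WT (median 34106) and 13541 to 29203 in *Mertk* -/-V1 (median 25477), 36070, 33620 and 30864 in *Mertk* -/-V2, and 18029, 29925 and 38711 in *Mertk* -/-V3. The *Mertk* -/-V1 libraries were mostly below B6 WT and overlapped it by 1 library of each group. The log2 fold change of *Slc2a1* in *Mertk* -/-V1 was -0.63 (SE 0.21, adjusted p = 0.421), and without the 3 libraries rich in rod RNA it was -0.31 (SE 0.10, adjusted p = 0.293). *Slc2a1* had a log2 fold change of 0.01 (SE 0.26) in *Mertk* -/-V2 and -0.27 (SE 0.26) in *Mertk* -/-V3.

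Of the hexokinases, *Hk1* was 6224 to 9827 in B6 WT (median 7461), 6473 to 20694 in *Mertk* -/-V1 (median 6804), 8147, 8353 and 7737 in *Mertk* -/-V2, and 13659, 9101 and 7556 in *Mertk* -/-V3. *Hk2* was 831 to 2643 in B6 WT (median 1395), 742 to 6045 in *Mertk* -/-V1 (median 1200), 1305, 1529 and 1152 in *Mertk* -/-V2, and 4157, 1947 and 617 in *Mertk* -/-V3. In both genes the highest values of a knockout came from the libraries rich in rod RNA, and the groups overlapped. The log2 fold change of *Hk2* in *Mertk* -/-V1 was 0.28 (SE 0.56, adjusted p = 0.93), and -0.58 (SE 0.34, adjusted p = 0.685) without those libraries.

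*Pfkfb3* was 246, 267, 335, 374, 664 and 480 in B6 WT, 507, 498, 511, 441, 897 and 788 in *Mertk* -/-V1, 413, 442 and 344 in *Mertk* -/-V2, and 913, 478 and 450 in *Mertk* -/-V3, in the order of the replicate numbers. Over all 6 replicates the *Mertk* -/-V1 and B6 WT libraries overlapped. The log2 fold changes were 0.65 in *Mertk* -/-V1 (SE 0.25, adjusted p = 0.595) and 0.64 in *Mertk* -/-V3 (SE 0.31, adjusted p = 0.452). Without the 3 libraries they were 0.39 (SE 0.22, adjusted p = 0.668) and 0.32 (SE 0.28, adjusted p = 0.554). *Pfkp* was 4358 to 9449 in B6 WT (median 5170), 4461 to 13474 in *Mertk* -/-V1 (median 5391), 5356, 6359 and 5410 in *Mertk* -/-V2, and 12032, 8265 and 6106 in *Mertk* -/-V3. Its log2 fold change in *Mertk* -/-V3 was 0.51 (SE 0.36, adjusted p = 0.55).

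Apart from the libraries rich in rod RNA, the RPE values of *Aldoa*, *Pgk1* and *Eno1* ran somewhat beyond those of B6 WT. *Aldoa* was 26663 to 33248 in B6 WT and 24508 to 33248 in the 15 libraries not rich in rod RNA, *Pgk1* 8766 to 9836 and 7305 to 10265, and *Eno1* 22562 to 26853 and 20476 to 29119. Their log2 fold changes against B6 WT ran from -0.04 to 0.16 over the 3 knockouts. *Eno1* was 27275, 29119 and 26892 in *Mertk* -/-V2, all above B6 WT, where the summed level of 6 melanocyte and stroma markers was also outside the B6 WT range (142313 to 148892 against 102289 to 133816). The part of these cells in the result was not tested.

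*Ldha* was 8059 to 9208 in B6 WT (median 8647), 8292 to 16857 in *Mertk* -/-V1 (median 9281), 8046, 8688 and 9555 in *Mertk* -/-V2, and 14267, 6832 and 5579 in *Mertk* -/-V3. In *Mertk* -/-V3 the library rich in rod RNA was above B6 WT and the other libraries below it. The log2 fold change in *Mertk* -/-V3 was -0.09 (SE 0.25, adjusted p = 0.878) with that library and -0.49 (SE 0.10, adjusted p = 0.071) without the 3 libraries. *Ldhb* was 7048 to 9073 in B6 WT (median 8530), 5021 to 9206 in *Mertk* -/-V1 (median 7265), 10187, 9214 and 9690 in *Mertk* -/-V2, and 5681, 7170 and 9546 in *Mertk* -/-V3. The *Mertk* -/-V2 libraries were all above B6 WT, with a log2 fold change of 0.21 (SE 0.17, adjusted p = 0.962), and that of *Mertk* -/-V1 was -0.26 (SE 0.14, adjusted p = 0.768). Without the 3 libraries rich in rod RNA the *Ldhb* value in *Mertk* -/-V1 was -0.09 (SE 0.10, adjusted p = 0.804).

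**Figure D3:**
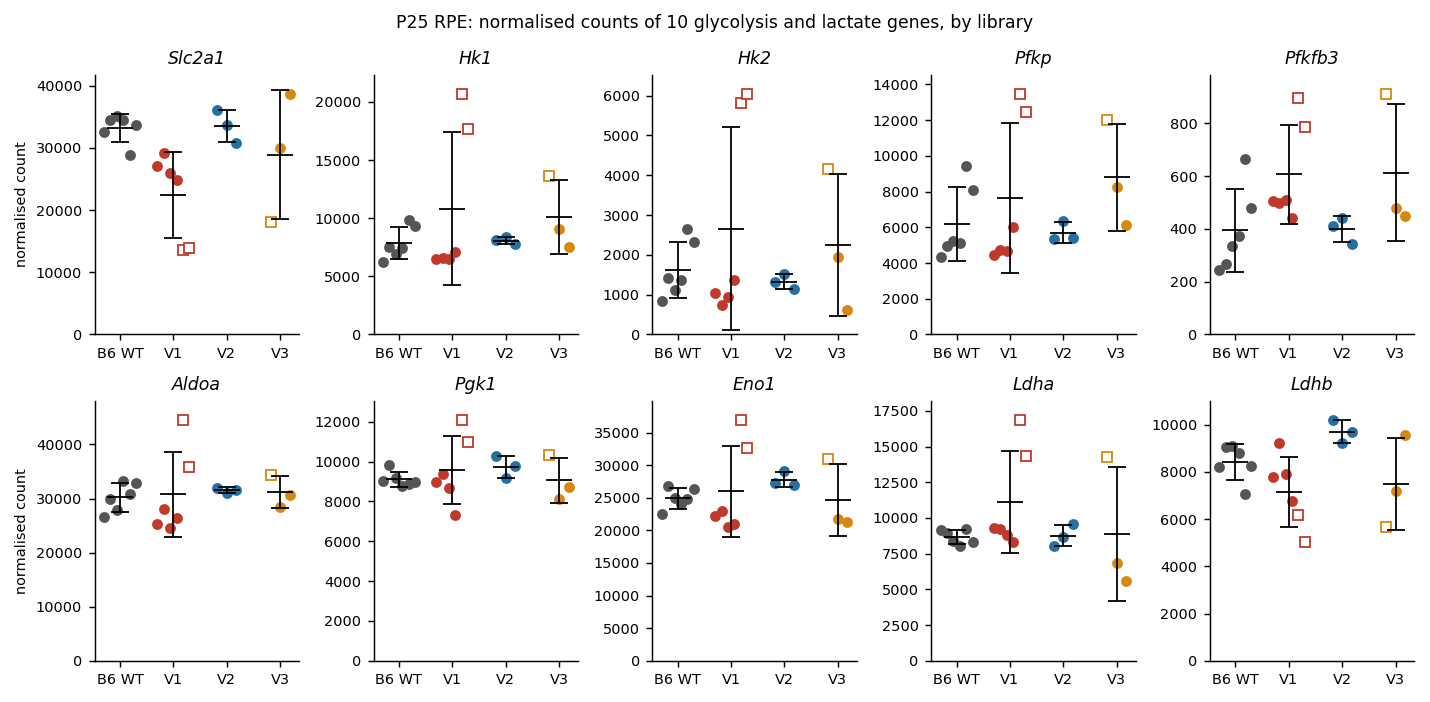
Normalised count (linear axes from 0) of the 10 genes in each P25 RPE library, with B6 WT and *Mertk* -/-V1 at 6 libraries and the other lines at 3; bars are mean ± SD, and open squares mark the 3 libraries rich in rod RNA. The squares reach 20694 for *Hk1* and 16857 for *Ldha*, apart from the filled points, and lie lowest for *Slc2a1*, at 13541 to 18029.

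The tests of these RPE values called 0 of the 11 rows in *Mertk* -/-V1, where 0.388% of all genes were called (73 of 18832), 0 in *Mertk* -/-V2 (0.069% of all genes) and 0 in *Mertk* -/-V3 (0.069%). limma was the test, on the log2 of the normalised count plus 1, with an adjusted p under 0.05 as the call. edgeR and DESeq2 on the recovered reads called 0 of the 11 in each as well. Without the adjustment, p was under 0.05 for 2 of the 11 in *Mertk* -/-V1 (*Slc2a1* and *Pfkfb3*) and 0 in each of the others. *Mertk* -/-V1 against the mean of the other knockouts called 0 of 11 (0.207% of all genes, and 1 of 11, *Slc2a1*, unadjusted) and *Mertk* -/-V2 against *Mertk* -/-V3 0 of 11 (0.0743%, and 0 unadjusted), again with 0 by edgeR and DESeq2. Groups that did not overlap were found for 0 rows in *Mertk* -/-V1 (1.09% of all genes), for *Eno1* and *Ldhb*, both higher, in *Mertk* -/-V2 (5.66%, with 3.72% higher), for 0 in *Mertk* -/-V3 (4.32%) and for *Pfkfb3*, lower in *Mertk* -/-V2 than in *Mertk* -/-V3 (23.4%). The comparisons with B6 WT share the same B6 WT libraries. The standard errors, 0.10 to 0.68 on the log2 scale against B6 WT and up to 0.79 between *Mertk* -/-V2 and *Mertk* -/-V3, set what could be seen at these sample sizes.

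With the mean rod marker level as a covariate, *Pfkfb3* was higher in *Mertk* -/-V1 RPE (0.56, SE 0.13, adjusted p = 0.036) and *Slc2a1* lower (-0.56, SE 0.13, adjusted p = 0.0368), the 2 of 11 rows called in a fit that called 1.68% of all genes. Over the alternatives run for this comparison the adjusted p of *Pfkfb3* was 0.036 to 1.00 and that of *Slc2a1* 0.0368 to 1.00. In *Mertk* -/-V3 the call depended on which B6 WT and *Mertk* -/-V1 libraries were used. With replicates 1 to 3 of these groups, the numbers that *Mertk* -/-V3 also has, *Pfkp* was higher by 0.81 (SE 0.20, adjusted p = 0.0185) and *Pfkfb3* by 1.05 (SE 0.24, adjusted p = 0.0154). That fit called 21.9% of all genes, so 2 of 11 rows is near the background. With replicates 4 to 6 it called 0 of the 11 and 0.0158% of all genes.

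Replicates 1 to 3 and 4 to 6 differed in 6 of the 11 rows. Compared within B6 WT and *Mertk* -/-V1, replicates 1 to 3 had lower *Hk2* (log2 fold change -1.45, SE 0.37, adjusted p = 0.0118), *Pfkp* (-0.86, SE 0.21, adjusted p = 0.00988), *Hk1* (-0.72, SE 0.24, adjusted p = 0.0321), *Pfkfb3* (-0.62, SE 0.19, adjusted p = 0.0232) and the second *Aldoa* row (-1.21, SE 0.31, adjusted p = 0.0114). *Ldhb* was higher in them (0.31, SE 0.10, adjusted p = 0.0331). These 6 of 11 rows compare with 40.8% of all 18795 genes tested, 21.8% higher and 19% lower, so a change of these genes was one among many. Same-numbered libraries of these groups deviated together, but libraries with different numbers were not compared. Pairs therefore cannot be told from libraries that only share a replicate set. The 12 libraries may be 6 pairs, 3 against 3, while the test took them as independent, and its p-values may be too small. Leaving out B6 WT replicate 5, or replicate 5 or 6 of *Mertk* -/-V1, left 3 rows called. The labels do not say what set the numbers apart. The 3 libraries rich in rod RNA move with this split, since *Mertk* -/-V1 libraries 5 and 6 fall on one side, and without them 2 of the 11 rows were called (20.4% of all genes). With the rod covariate 0 of 11 were called (0.0638% of all genes). When either genotype was used by itself, 0 of 11 and 0 of all genes passed in limma, although 5945 genes in B6 WT and 6919 in *Mertk* -/-V1 had an unadjusted p under 0.05.

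Within each set of replicate numbers the *Mertk* -/-V1 effect could be read without that split. In replicates 1 to 3 the log2 fold change of *Pfkfb3* was 0.85 (SE 0.24, adjusted p = 0.491) and that of *Slc2a1* -0.31 (SE 0.23, adjusted p = 1.00). In replicates 4 to 6 that of *Pfkfb3* was 0.46 (SE 0.33, adjusted p = 0.577) and that of *Slc2a1* -0.95 (SE 0.30, adjusted p = 0.45). The direction was the same in both sets for both genes and neither passed the test in either. Replicates 4 to 6 include *Mertk* -/-V1 libraries 5 and 6, which are rich in rod RNA and had *Slc2a1* at 13541 and 13961.

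In BMDMs *Aldoa*, *Pgk1* and *Ldha*, abundant enzymes of the lower part of the pathway, fell slightly in *Mertk* -/-V1 and *Mertk* -/-V2, with log2 fold changes of -0.20 to -0.32 against B6 WT. *Aldoa* was 30279, 30737 and 28257 in B6 WT, 26033, 25592 and 26240 in *Mertk* -/-V1, 24416, 25612 and 26677 in *Mertk* -/-V2, and 29078, 30383 and 29205 in *Mertk* -/-V3. Every *Mertk* -/-V1 and *Mertk* -/-V2 library was below every B6 WT library, and *Mertk* -/-V3 lay within B6 WT. The log2 fold change was -0.20 in *Mertk* -/-V1 (SE 0.05, adjusted p = 0.031) and -0.22 in *Mertk* -/-V2 (SE 0.05, adjusted p = 0.0259).

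*Pgk1* was 21790, 22686 and 21082 in B6 WT, 19086, 18467 and 19435 in *Mertk* -/-V1, 17411, 17935 and 17215 in *Mertk* -/-V2, and 19276, 21571 and 20345 in *Mertk* -/-V3. *Mertk* -/-V2 was lowest and did not overlap any other group. The log2 fold change was -0.20 in *Mertk* -/-V1 (SE 0.05, adjusted p = 0.0273) and -0.32 in *Mertk* -/-V2 (SE 0.05, adjusted p = 0.00309). *Ldha* was 27636, 27681 and 26350 in B6 WT, 23565, 23505 and 23975 in *Mertk* -/-V1, 22070, 23849 and 23716 in *Mertk* -/-V2, and 25709, 27620 and 26947 in *Mertk* -/-V3. *Ldha* in *Mertk* -/-V1 and *Mertk* -/-V2 was again below B6 WT without overlap, while *Mertk* -/-V3 overlapped B6 WT, with log2 fold changes of -0.20 (SE 0.05, adjusted p = 0.0235) in *Mertk* -/-V1 and -0.23 (SE 0.05, adjusted p = 0.0178) in *Mertk* -/-V2.

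*Ldhb*, scarce in these cells, was 277, 255 and 224 in B6 WT, 169, 174 and 159 in *Mertk* -/-V1, 156, 183 and 244 in *Mertk* -/-V2, and 200, 233 and 198 in *Mertk* -/-V3. Its *Mertk* -/-V1 libraries did not overlap B6 WT and its log2 fold change there, -0.58 (SE 0.14, adjusted p = 0.0284), was larger than those of the abundant enzymes. That of *Mertk* -/-V2 was -0.39 (SE 0.14, adjusted p = 0.134). The *Ldhb* share of the lactate dehydrogenases was 1.47 ± 0.08% in *Mertk* -/-V1 (SD, n = 3, from 1.38 to 1.54%), and 1.63 ± 0.11% in *Mertk* -/-V3 (from 1.53 to 1.75%), both below the 1.76% of the lowest B6 WT library, and 1.73 ± 0.35% in *Mertk* -/-V2 (from 1.47 to 2.12%), which overlapped B6 WT.

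*Eno1* was 29594, 31230 and 28022 in B6 WT, 25487, 25876 and 26319 in *Mertk* -/-V1, 22944, 25417 and 28548 in *Mertk* -/-V2, and 26996, 30068 and 28322 in *Mertk* -/-V3. Its values in *Mertk* -/-V1 lay below B6 WT but the log2 fold changes of -0.19 (SE 0.07, adjusted p = 0.119) and, in *Mertk* -/-V2, -0.21 (SE 0.07, adjusted p = 0.105) did not pass the test. *Pfkfb3* was 906, 990 and 896 in B6 WT, 1083, 1098 and 1056 in *Mertk* -/-V1, 1053, 1091 and 1112 in *Mertk* -/-V2, and 781, 929 and 942 in *Mertk* -/-V3. The *Mertk* -/-V1 and *Mertk* -/-V2 libraries were all above B6 WT, with log2 fold changes of 0.21 (SE 0.07, adjusted p = 0.0724) and 0.22 (SE 0.07, adjusted p = 0.0771).

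The transporter, the hexokinases and *Pfkp* were close in all genotypes of BMDMs. *Slc2a1* was 1494 to 1995 over the 12 libraries, *Hk1* 3828 to 4188, *Hk2* 1823 to 2398 and *Pfkp* 2870 to 3288. Their log2 fold changes against B6 WT ran from -0.11 to 0.08, and none of these 4 genes was called in any of the BMDM comparisons.

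**Figure D4:**
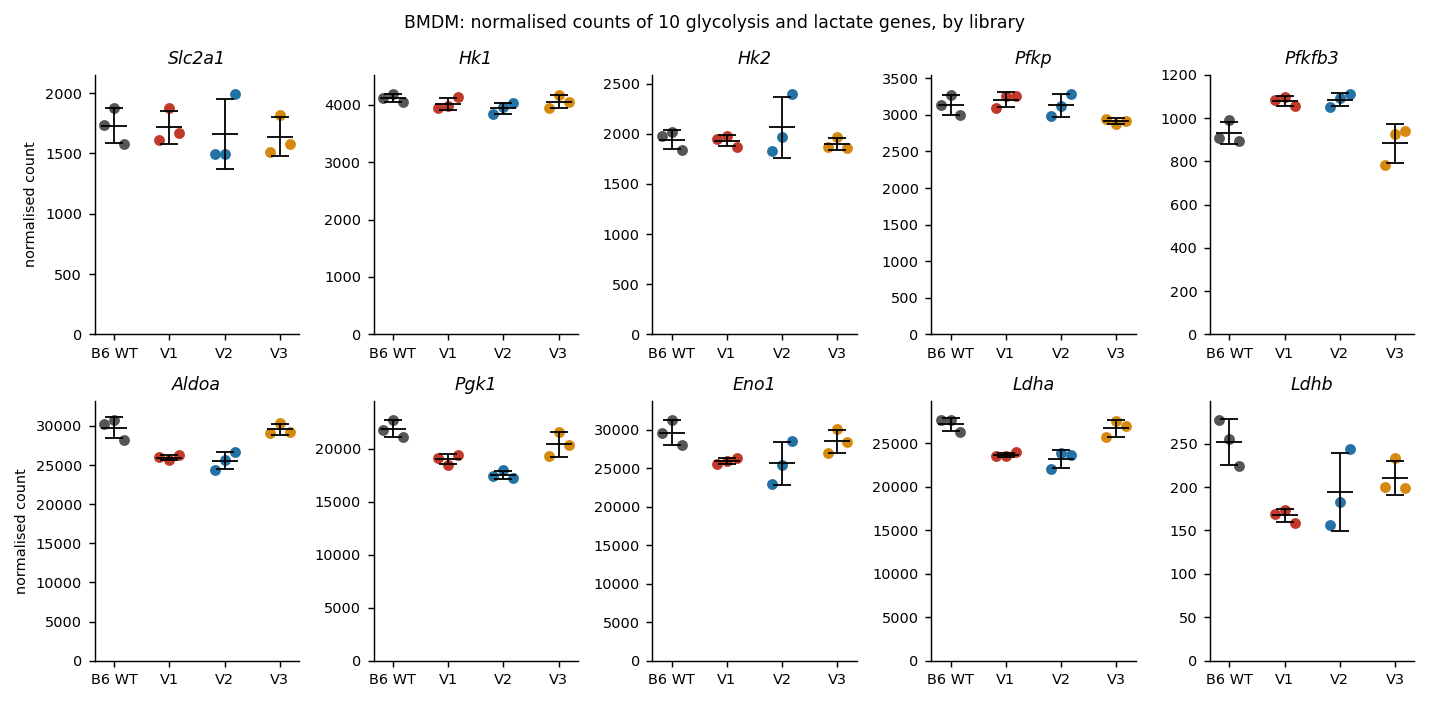
Normalised count (linear axes from 0) of the 10 genes in each BMDM library, 3 per genotype; bars are mean ± SD. *Aldoa*, *Pgk1* and *Ldha* are lower in *Mertk* -/-V1 and *Mertk* -/-V2 than in B6 WT without overlap, *Ldhb* falls from 224 to 277 in B6 WT to 159 to 174 in *Mertk* -/-V1, and *Slc2a1* overlaps B6 WT in each line.

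Counted over the set, 4 of the 11 rows were lower in *Mertk* -/-V1 BMDMs (*Aldoa*, *Pgk1*, *Ldha* and *Ldhb*) and 0 higher, where 7.07% of 13420 genes were called and 3.15% were called lower. There were 3 of the 11 lower in *Mertk* -/-V2 (*Aldoa*, *Pgk1* and *Ldha*) and 0 higher, where 4.61% were called and 2.36% called lower. In *Mertk* -/-V3, 0 of the 11 were called by limma, edgeR or DESeq2, with 1 (*Pfkp*) at an unadjusted p under 0.05 and 1.17% of all genes called. Taken in the order of the line numbers, the median log2 fold change of the 11 rows was -0.19, -0.21 and -0.08, against -0.0047, -0.0010 and 0.0048 for all genes. No row reached the 2.38-fold change that the study also required of a call, which 0.425%, 0.253% and 0.156% of all genes did. Groups that did not overlap B6 WT were found for 6 of the 11 rows in *Mertk* -/-V1 (30.9% of all genes), 6 in *Mertk* -/-V2 (22.7%) and 1 in *Mertk* -/-V3 (25.4%). Against the share over all genes the first and second counts are above the background and the third below it.

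The knockout lines were also compared with one another, which does not use B6 WT. In *Mertk* -/-V2 against *Mertk* -/-V3, *Pgk1* (-0.22, SE 0.05, adjusted p = 0.031), *Ldha* (-0.21, SE 0.05, adjusted p = 0.0336) and *Aldoa* (-0.21, SE 0.05, adjusted p = 0.0361) were lower and *Pfkfb3* (0.30, SE 0.07, adjusted p = 0.0307) was higher, 4 of 11 rows where 3.16% of all genes were called, 1.42% higher and 1.74% lower. The groups did not overlap for 5 of the 11 rows (22.2% of all genes). *Mertk* -/-V1 against the mean of the other knockouts called 0 of 11 by limma, edgeR or DESeq2 (0.991% of all genes, and 1 of 11, *Pfkfb3*, unadjusted). *Mertk* -/-V2 and *Mertk* -/-V3 both lack the 129P2 segment.

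These BMDM calls are small and rest on few libraries. Leaving out any of 5 of the 6 libraries of *Mertk* -/-V1 and B6 WT, all but B6 WT replicate 3, ended the 4 calls, with 0 rows called each time. The log2 fold changes stayed between -0.17 and -0.23 for *Aldoa*, *Pgk1* and *Ldha* and between -0.51 and -0.67 for *Ldhb* whichever library was left out. In *Mertk* -/-V2, *Pgk1* was called whichever library was left out, and *Aldoa* and *Ldha* were lost without B6 WT replicate 1, B6 WT replicate 2 or *Mertk* -/-V2 replicate 1. Leaving out any of the 6 libraries of *Mertk* -/-V2 and *Mertk* -/-V3 left 0 to 2 rows called between these lines. When only *Mertk* -/-V2 and B6 WT, or only *Mertk* -/-V2 and *Mertk* -/-V3, entered the fit, 0 rows were called (0.515% and 0.644% of all genes). The fit of *Mertk* -/-V1 and B6 WT alone called 6 of the 11 (9.75% of all genes), with *Eno1* lower and *Pfkfb3* higher in addition.

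Replicate 3 of *Mertk* -/-V2 stood apart among the BMDMs and touches these values. Its *Cx3cr1*, a receptor of monocyte-derived cells, was 2468 against 106 to 913 in the other 11 libraries, and its *Mrc1*, the mannose receptor, 51447 against 73776 to 108227. *Slc2a1* (1995 against 1494 to 1876), *Hk2* (2398 against 1823 to 2014), *Pfkp* (3288 against 2870 to 3274) and *Pfkfb3* (1112 against 781 to 1098) were above and *Pgk1* (17215 against 17411 to 22686) below the range of the others, where 13.6% and 15.7% of all genes were. Without that library 5 of the 11 rows were lower in *Mertk* -/-V2 than in B6 WT, where 8.72% of all genes were called, with *Eno1* (-0.29, SE 0.06, adjusted p = 0.00924) and *Ldhb* (-0.57, SE 0.13, adjusted p = 0.0143) added to *Aldoa*, *Pgk1* and *Ldha*. The summed macrophage markers overlapped between all genotypes, and their part in the result was not tested.

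**Figure D5:**
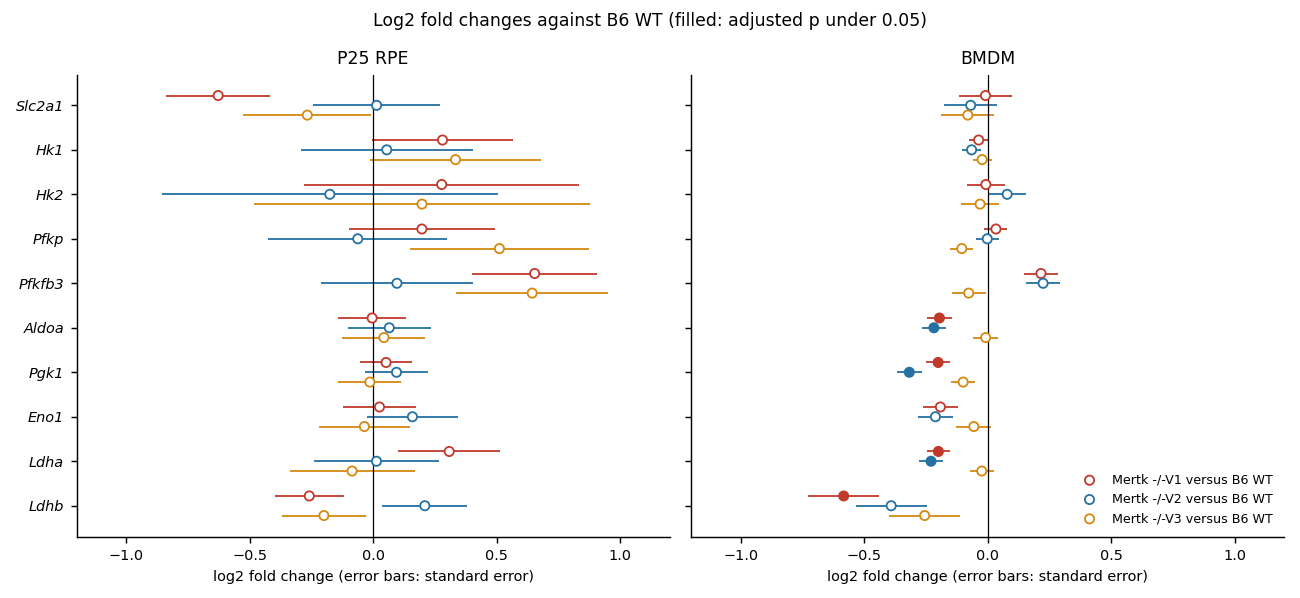
Log2 fold change of the 10 genes in each *Mertk* knockout against the shared B6 WT libraries, in P25 RPE (left) and BMDMs (right), on the same horizontal axis; lines are standard errors and filled points have an adjusted p under 0.05 (limma). All RPE points are open with standard errors of 0.10 to 0.68, and the filled BMDM points, from -0.58 to -0.20, belong to *Aldoa*, *Pgk1*, *Ldha* and *Ldhb*.

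Whether the RPE and BMDM effects differ was tested as an interaction of tissue and genotype in edgeR. The difference was called for 0 of 11 rows in *Mertk* -/-V1 (0.158% of 20873 genes), *Mertk* -/-V2 (0.0431%) and *Mertk* -/-V3 (0.0192%). limma on log2 CPM also called 0 in each. The unadjusted p was below 0.05 for 0, 2 and 0 rows, the 2 being *Pgk1* (0.43, adjusted p = 0.437) and *Ldhb* (0.59, adjusted p = 0.537) in *Mertk* -/-V2. So the calls in BMDMs and their absence in RPE were not shown to differ.

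Of 18 other glycolytic enzymes tested in BMDMs, 1 was lower in *Mertk* -/-V1, the liver phosphofructokinase *Pfkl* (3815 to 4149 in B6 WT and 3254 to 3490 in *Mertk* -/-V1, log2 fold change -0.25, adjusted p = 0.0245). There were 2 lower in *Mertk* -/-V2, *Pfkl* (-0.27, adjusted p = 0.0252) and triose phosphate isomerase *Tpi1* (14713 to 15358 in B6 WT and 11887 to 13203 in *Mertk* -/-V2, -0.25, adjusted p = 0.0124). None was higher in either by limma, and DESeq2 called 2 of the 18 in *Mertk* -/-V1 and 4 in *Mertk* -/-V2. Of all genes limma called 7.07% in *Mertk* -/-V1, so 1 of 18 is near the background, and 4.61% in *Mertk* -/-V2. The median log2 fold change of the 18 was -0.0014 and -0.0059, against -0.19 and -0.21 for the 11 rows. In *Mertk* -/-V3 against B6 WT, limma and edgeR called 0 in each of the 6 other lists, with 0 to 3 per list at an unadjusted p under 0.05, and DESeq2 called 1 gene of lactate transport, 1 of gluconeogenesis and 2 HIF targets. *Tpi1* and *Pfkl* were also lower in *Mertk* -/-V2 than in *Mertk* -/-V3, by -0.22 (adjusted p = 0.0277) and -0.26 (adjusted p = 0.0311). That comparison called 3.16% of all genes.

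Among 16 genes of lactate transport and pyruvate fate tested in BMDMs, *Bsg*, the chaperone of the lactate transporters, was lower in *Mertk* -/-V1 (5934 to 6223 in B6 WT and 5242 to 5605, -0.16, adjusted p = 0.0347). *Emb*, another such chaperone, was higher in *Mertk* -/-V2 than in *Mertk* -/-V3 (2361 to 2904 and 1952 to 2067, 0.34, adjusted p = 0.0268). Of 7 genes of the pentose phosphate branch, *Taldo1*, transaldolase, was lower in *Mertk* -/-V1 (6698 to 7563 in B6 WT and 6050 to 6143, -0.25, adjusted p = 0.0411). Beside these single calls, 7.07% of all genes were called in *Mertk* -/-V1 and 3.16% in *Mertk* -/-V2 against *Mertk* -/-V3. Of 11 genes of gluconeogenesis and glycogen, limma, edgeR and DESeq2 called 0 in *Mertk* -/-V1 and *Mertk* -/-V2, while 2 and 6 of them had an unadjusted p under 0.05. *Mertk* -/-V2 against B6 WT gave 0 calls by limma and edgeR among the genes of lactate transport, the pentose phosphate branch and the HIF factors, with 4, 2 and 2 unadjusted, and DESeq2 called 2, 0 and 0.

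The HIF genes gave mixed directions in *Mertk* -/-V1 BMDMs. Of 8 HIF factors, *Egln3*, a prolyl hydroxylase that marks HIF for degradation and is itself induced by it, was lower (171 to 183 in B6 WT and 105 to 126, log2 fold change -0.65, adjusted p = 0.047). Of 12 HIF targets outside glycolysis, *P4ha1*, which hydroxylates collagen, was lower (2789 to 3131 and 2482 to 2541, -0.20, adjusted p = 0.0447) and *Ndrg1* was higher (752 to 852 and 1099 to 1155, 0.47, adjusted p = 0.0472). In *Mertk* -/-V2 against B6 WT limma called 0 of the 12, with 5 at an unadjusted p under 0.05, 0 by edgeR and 1 by DESeq2. *Ankrd37* was lower in *Mertk* -/-V2 than in *Mertk* -/-V3 (63.6 to 70.4 and 108 to 120, -0.76, adjusted p = 0.0153). The share of all genes called was 7.07% in *Mertk* -/-V1 against B6 WT and 3.16% in *Mertk* -/-V2 against *Mertk* -/-V3.

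In RPE the 6 other lists, of 7 to 20 genes tested, held 0 calls against B6 WT in the 3 knockouts by limma or edgeR, with 0 to 5 per list at an unadjusted p under 0.05. DESeq2 called 1, a HIF target in *Mertk* -/-V3. In *Mertk* -/-V1 against the mean of the other knockouts 1 gene was called, *Pdp2*, a phosphatase that activates pyruvate dehydrogenase, at 541 to 796 in *Mertk* -/-V1, 438 to 485 in *Mertk* -/-V2 and 443 to 570 in *Mertk* -/-V3 (log2 fold change 0.56, SE 0.10, adjusted p = 0.0208). That comparison called 0.207% of all genes. Between replicates 1 to 3 and 4 to 6 the other lists held calls as well: 4 of 7 pentose phosphate genes were higher and 0 lower in replicates 1 to 3 (*Pgls*, *Taldo1*, *Pgd* and *Rpia*), while 5 of 20 other glycolytic enzymes were lower and 2 higher. Of the genes of lactate transport and pyruvate fate 5 of 19 were higher and 2 lower, of the HIF factors 4 of 8 and 1, of the HIF targets 4 of 14 and 2, and of gluconeogenesis and glycogen 2 of 11 and 0. The lower ones included *Slc2a3*, the neuronal glucose transporter (-2.02, adjusted p = 0.00747), and *Eno2*, the neuronal enolase (-1.55, adjusted p = 0.00847), beside 40.8% of all genes called in that comparison. *Slc16a1* (0.60, adjusted p = 0.0109) and *Slc16a8* (0.87, adjusted p = 0.00907), lactate transporters of which *Slc16a8* is also an RPE marker, were higher.

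Of the 10 genes only *Pfkfb3* lies on chromosome 2, which also carries *Mertk*. In GRCm38 with the GENCODE M21 annotation the positions are *Slc2a1* at chr4:119108711-119137983, *Hk1* at chr10:62268855-62379908, *Hk2* at chr6:82725025-82774454, *Pfkp* at chr13:6579768-6648777, *Pfkfb3* at chr2:11471433-11554077, *Aldoa* at chr7:126795234-126800751, *Pgk1* at chrX:106187100-106203699, *Eno1* at chr4:150236721-150248879, *Ldha* at chr7:46841475-46855627 and *Ldhb* at chr6:142490249-142507957. The second *Aldoa* row (ENSMUSG00000114515) lies next to the first, at chr7:126800790-126809108, shares 0 exon bases with it and held 12.3 to 91.0 normalised counts in RPE and 5.46 to 21.3 in BMDMs. Near-identical copies of these genes can share reads with them: *Aldoart1* held at most 0.851% of the count of *Aldoa*, *Ldha-ps2* 0.749% of *Ldha*, *Eno1b* 0.712% of *Eno1* and *Pgk1-ps1* 0.538% of *Pgk1* in any library.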

How the data were processed

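RNA-seq libraries (polyA RNA, paired-end reads of an Illumina NovaSeq) were analysed from 18 P25 RPE and 12 BMDM samples. The authors trimmed the reads with btrim, aligned them with STAR to GRCm38, and deposited gene-level counts divided by DESeq2 size factors, one table per tissue (normalised signal per gene); the read counter, the annotation release and the tool versions are not given in the sources used here. Each value was a whole multiple of what 1 read is worth in its library, and the reads recovered in this way were whole for 100% of values (within 0.0005), 14137666 to 34124049 per RPE library and 16629659 to 25653814 per BMDM library. Columns of other samples numbered 0. The 240 rows without a symbol kept their identifiers and stayed in the tests.

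The main test was limma 3.58.1 (R 4.3.3; lmFit, then eBayes with a trend) on log2(normalised count + 1), so fold changes understate those of low genes. The 4 genotypes of a tissue entered one model, genes with a mean of at least 10 were tested (18832 in RPE, 13420 in BMDMs), and p-values were adjusted over these genes by Benjamini-Hochberg. An adjusted p under 0.05 was a call, and every adjusted p in the text is from limma unless edgeR is named. The tissue interaction used edgeR 4.0.16 (quasi-likelihood, TMM) on the recovered reads of all 30 libraries, without standard errors. DESeq2 1.42.0 was an alternative. Replicates are biological by their labels. Levels per length used exon lengths of GENCODE M21, found for 55480 of 55573 rows. Promoter windows came from RefSeq (GRCm38.p6) and matched all 10 genes. Python 3.11.15 made the descriptions. The test scripts were tested on simulated data.

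The 10 genes and all other lists were chosen with earlier results of these data known. The text names the 10 genes, *Mertk*, from each other list at most 4 called genes per comparison by smallest p, the 3 genes most like the mean of their rows in each tissue, and near-identical copies. Same-numbered B6 WT and *Mertk* -/-V1 RPE libraries deviated together (r = 0.12 to 0.72 over 6 pairs), and their numbers were taken as possible pairs. Different numbers were not compared, so a shared replicate set cannot be told from pairing. In the other group pairs at least 1 pair had r under 0.1. Alternatives were another pseudocount, no filter, fits of the compared groups alone, edgeR, DESeq2, the replicate block, rod markers (mean log2) as a covariate, the replicate sets, leaving out each library, and, added after seeing the data, leaving out the 3 RPE libraries richest in rod markers and using replicates 1 to 3 of *Mertk* -/-V1 alone.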

Additional observations from a re-analysis of the deposited data

How the results depend on the processing

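Changes of pseudocount, of the filter, and of tool (edgeR, DESeq2) moved no count of called rows by over 1.5 times in any comparison. With the rod covariate 2 rows were called in *Mertk* -/-V1 RPE and 3 in *Mertk* -/-V2 against *Mertk* -/-V3 RPE (*Pfkp*, *Pfkfb3* and *Ldhb*; 12.3% of all genes). In *Mertk* -/-V3 RPE 3 rows (*Pfkp*, *Pfkfb3* and *Hk1*) were called with the replicate block, 2 with the replicate set as a term and 2 when B6 WT and *Mertk* -/-V1 were reduced to replicates 1 to 3, where 29.8%, 25.2% and 21.9% of all genes were called against 0.069%. *Mertk* -/-V1 replicates 1 to 3 alone against the other lines gave 1 (*Pfkp*; 11.5% of all genes), and the tissue interaction of *Mertk* -/-V3 with RPE replicates 1 to 3 gave 2 (6.74% of all genes). In BMDMs the study's fold threshold left 0 rows in each comparison, the fit of the compared groups alone left 0 for *Mertk* -/-V2 against B6 WT and against *Mertk* -/-V3 (69 and 87 of all genes against 618 and 424), and the replicate block, for samples that share only a number there, left 1 row in *Mertk* -/-V1, 2 rows for *Mertk* -/-V2 against B6 WT and 1 for *Mertk* -/-V2 against *Mertk* -/-V3 (4.21%, 2.27% and 1.89% of all genes). For B6 WT and *Mertk* -/-V1 RPE, where the numbers may be pairs, the block changed no call of a row (0 rows, and 131 of all genes against 73). Between replicate sets the fold threshold left 1 row (1752 of 18795 genes), either genotype by itself 0, the rod covariate 0, and the removal of the 3 libraries 2; under the covariate *Hk2* (0.084, adjusted p = 0.939) and *Hk1* (0.20, adjusted p = 0.775) changed sign. Leaving out 1 library gave 0 to 4 rows in *Mertk* -/-V1 BMDMs, 1 to 5 in *Mertk* -/-V2 BMDMs, 0 to 2 in *Mertk* -/-V2 against *Mertk* -/-V3 BMDMs, 3 to 8 between replicate sets and 0 elsewhere. Except where fewer libraries or genes entered, the cause of these moves was not tested. Standard errors of up to 0.79 in the main RPE fits limit what could be detected there.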

Other observations

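Some genes outside the set of 10 followed it closely across libraries. The measure was Pearson's r with the unweighted mean of the centred log2 values of all 11 rows. These include the second *Aldoa* row, which is low in BMDMs (5.46 to 21.3 counts). The libraries of a tissue share their preparation, depth range and cell composition. Over the 18 RPE libraries the 3 highest were *Wasf3* (r = 0.988, 597 to 4446 normalised counts), a regulator of actin branching, *Fam78b* (r = 0.986, 55.0 to 1029) and *Sbk1* (r = 0.986, 657 to 2582). With the means of each genotype and replicate set removed, *Wasf3* (r = 0.991) stayed highest. *Scamp5* (r = 0.988), a protein of synaptic vesicles, and *Fam78b* (r = 0.987) followed. Over the 12 BMDM libraries they were *Rnf122* (r = 0.929, 4.37 to 20.4 counts), *Pgam1* (r = 0.914, 7665 to 9080), the phosphoglycerate mutase between *Pgk1* and *Eno1* in the pathway, and *Mipep* (r = 0.908). With genotype means removed they were *Gskip* (r = 0.938), *Slc16a3* (r = 0.930, 2575 to 3621), which encodes the lactate exporter MCT4, and *Dynll1* (r = 0.928). These are descriptions over libraries that include those standing apart.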
